A study of Mus musculus with 6 samples.

Results

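The genes described here are 5 carboxylesterases of the mouse, Ces1b, Ces1c, Ces1d, Ces2e and Ces2f, read by 8 of the 41174 probes of a 2-colour expression array. They were chosen with their difference between the study's groups already known, so those differences are given as a description, with errors and without a test. A probe was taken as theirs when the scanner files, or the RefSeq entry of its accession, gave it 1 of these 5 symbols. All 8 probes passed the filter on dim signals and were among the 30505 probes tested, which stand for 20820 genes.

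The study compared the esophagus of adult C57BL/6J mice in 2 groups of 3 arrays: wild type mice, and mice of the genotype K5Cre;Pax9 loxp/loxp. In the latter, Cre recombinase under a keratin 5 promoter, active in the basal layer of squamous epithelium, recombines the floxed gene of Pax9, a paired-box transcription factor. None of the 6 arrays carried RNA of mice with Cre alone or with the floxed gene alone. On each array the esophagus RNA was labelled with Cy5 and Agilent's Universal Mouse Reference RNA, from 11 cultured mouse cell lines, with Cy3. The labels number the samples of a group as biological replicates without saying how many animals each held, so errors measure the spread between these samples. The labelled source is the epithelium, while the protocol names esophageal tissue.

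Carboxylesterases are serine hydrolases of the endoplasmic reticulum that split ester and amide bonds. They are best known from liver and intestine, where they hydrolyse ester drugs, toxins and stored lipids. In the mouse most of them are encoded by tandem arrays of close relatives, so that a short array probe can match more than 1 gene.

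That limit is clearest for Ces1b and Ces1c, and the probes are shown here because the results turn on what they can tell apart. The probe sequences come from the scanner files, and their positions, on chromosome 8, are on build mm9. The Ces1b probe lies at 95581314 to 95584247 on the minus strand, and its 60 bases stretch over 2934 bases of genome, so it crosses a splice junction. The Ces1c-only probe, at 95624607 to 95628058, likewise stretches over 3452 bases. Shifted by 5 bases they overlap over 55 bases, of which 49 are identical and 6, in capitals, differ.
Ces1b probe: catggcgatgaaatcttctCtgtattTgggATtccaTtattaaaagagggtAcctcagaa
Ces1c-only probe: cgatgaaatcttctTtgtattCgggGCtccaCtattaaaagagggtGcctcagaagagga

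The other Ces1c probe, at 95622965 to 95623024, carries accessions of both Ces1b and Ces1c, so its signal cannot be given to 1 of them. It is the brighter one and stands for Ces1c in the counts. The Ces1d probe, at 95693648 to 95694933, shares with the Ces1c-only probe the run of 17 bases in capitals. Bases before that run also match in part and were not counted. The brighter Ces2f probe lies at 107478540 to 107478599 on the plus strand. The word coding in its label below is a name only, since probes were not placed on exons.
Ces1b and Ces1c probe: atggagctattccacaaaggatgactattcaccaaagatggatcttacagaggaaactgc
Ces1d probe: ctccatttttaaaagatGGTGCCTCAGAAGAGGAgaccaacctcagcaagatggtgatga
Ces2f coding probe: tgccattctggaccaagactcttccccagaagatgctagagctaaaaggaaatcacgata

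Some facts of the whole series bear on every value below. Slide 1 held every wild type array and slide 2 every knockout array, so slide and group cannot be told apart. The Pax9 probe had a Cy5 signal of 17209 to 19081 under the knockout label and 4409 to 8915 under the wild type label, so it was not lower in the former. Its log2 ratio difference was 0.73 (SE 0.18, limma adjusted p = 0.071, and 0.0094 to 0.38 over 17 alternatives). The labels do not name the floxed exons, and a probe outside them would check nothing. Groups are therefore called by their labels, and each direction rests on them. Replicate 3 labelled wild type was bright as a whole, with a median background-subtracted Cy5 signal of 166.9 against 59.0 and 75.9 on the others of its group and 101.8 to 140.0 on the arrays labelled knockout. With tissue RNA in bulk, fewer cells of a type and less RNA per cell cannot be told apart.

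Signals below are background-subtracted fluorescence in the scanner's linear units, given for replicates 1, 2 and 3. A log2 ratio is Cy5 over Cy3 after background correction and loess normalization, and a difference is the mean of the arrays labelled knockout minus that of the arrays labelled wild type. Cy5 alone is the same difference in the esophagus channel after quantile normalization between arrays. The deposited log ratio is the scanner program's own, on the log2 scale. Signals of different probes are not compared with each other.

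The Ces1b probe showed the largest log2 ratio difference of the 8 probes. Its Cy5 signal was 42.4, 62.5 and 344 on the arrays labelled wild type and 5639, 5100 and 10640 on the knockout-labelled arrays. The lowest array labelled knockout was thus far above the highest labelled wild type. Mean signals were 150 ± 169 and 7126 ± 3055 (SD, n = 3 each), a 47.6-fold difference, which was 136-fold without the bright wild type replicate 3. Leaving out any other single array gave 35.1-fold to 54.4-fold. Such folds are of signals that were not scaled between arrays. The log2 ratio was 1.06, 1.40 and 2.86 against 5.88, 5.52 and 5.87, and these groups did not overlap either. The difference was 3.98 (SE 0.44), and 4.92 (SE 0.35) with Cy5 alone.

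The reference channel of the Ces1b probe was not level across the arrays. Every array carried the same kind of reference RNA, yet the Cy3 signal of this probe was 3.57, 2.97 and 14.2 on the arrays labelled wild type and 161, 163 and 301 on the knockout-labelled arrays. Cy3 was well above background on 1 of 3 and on 3 of 3 arrays, so the ratios of the former group are imprecise. As a share of the Cy5 signal of the same spot, Cy3 was 4.14% to 8.42% and 2.83% to 3.20%. The reference difference was 2.05 (SE 0.18) on the log2 scale. The deposited log ratio, which subtracts background and adds no offset, was 5.38, 5.88 and 5.39 against 6.21, 5.87 and 5.98. These groups overlapped, and the difference was 0.47 (SE 0.23). Why Cy3 was higher at these spots was not tested.

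Ces1c, a secreted esterase of mouse plasma that is made in the liver, gave unlike sizes on its 2 probes. The probe shared with Ces1b had Cy5 signals of 118, 152 and 556 on the arrays labelled wild type and 11265, 14732 and 24094 on the knockout-labelled arrays, without overlap. Means were 275 ± 243 and 16697 ± 6637 (SD, n = 3 each), a 60.6-fold difference, or 124-fold without wild type replicate 3. Leaving out any other single array gave 47.2-fold to 70.5-fold for this probe. Its log2 ratio was 2.18, 2.33 and 3.24 against 5.81, 5.53 and 5.47, which is also without overlap. The difference was 3.02 (SE 0.29), and 5.32 (SE 0.25) with Cy5 alone. Cy3 moved here too, from 9.42, 11.7 and 32.4 to 397, 547 and 907, or 5.83% to 8.0% and 3.53% to 3.76% of Cy5. Since Cy3 was well above background on 1 of 3 arrays labelled wild type, the ratios of that group are imprecise. The deposited log ratio was 5.71, 5.41 and 4.94 against 5.85, 5.54 and 5.42. Those values overlapped, with a difference of 0.25 (SE 0.26).

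The probe that RefSeq gives to Ces1c alone was dim. Its Cy5 signal was 1.44, 7.52 and 17 on the arrays labelled wild type, where 1 of 3 was well above background, and 60.5, 31.4 and 139 on the knockout-labelled arrays, where all 3 were. The ranges did not overlap, but only bounds exist for the arrays below background. The log2 ratio difference was 0.72 (SE 0.30), and with median centring in place of loess it was 0.04. Cy5 alone gave 0.88 (SE 0.26). Cy3 was higher here as well, at 11.3, 9.46 and 14.4 against 51.6, 40.1 and 53.9, a Cy3 difference of 0.64 (SE 0.1) without overlap. The deposited log ratio overlapped, with a difference of 0.76 (SE 0.58). How much of the shared probe's signal came from Ces1c therefore cannot be read from these probes.

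Ces1d, a triacylglycerol hydrolase of liver and fat tissue, was bright in both groups. Cy5 signals were 2350, 2680 and 14580 on the arrays labelled wild type and 11295, 24391 and 12260 on the knockout-labelled arrays. They overlapped, because the bright replicate 3 labelled wild type exceeded 2 of the arrays labelled knockout. The log2 ratio, which is normalized within the array, was 6.04, 6.12 and 6.47 against 7.16, 7.06 and 6.76 and did not overlap. The difference was 0.78 (SE 0.18), and 1.13 (SE 0.39) with Cy5 alone. The deposited log ratio was 6.82, 6.89 and 6.83 against 7.63, 7.23 and 7.10, a difference of 0.47 (SE 0.21) without overlap. Cy3, at 104, 93.5 and 213 against 121, 285 and 162, overlapped, and its difference was 0.48 (SE 0.25).

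Ces2e, an esterase of the endoplasmic reticulum known from intestine and liver, had the smallest log2 ratio difference of the 8 probes on its brighter probe. That probe, at 107458425 to 107458484 on chromosome 8 (mm9, plus strand), had Cy5 signals of 1929, 1603 and 7028 against 3834, 7054 and 4799. The groups overlapped. Log2 ratios of 4.77, 4.44 and 5.13 against 5.27, 5.14 and 5.03 overlapped as well, with a difference of 0.37 (SE 0.20) and of 0.29 (SE 0.24) with Cy5 alone. Cy3 was 289, 251 and 277 against 170, 338 and 239, which overlap, with a difference of 0.03 (SE 0.13). The deposited log ratio did not overlap, at 4.90, 4.60 and 5.11 against 5.72, 5.31 and 5.30, a difference of 0.57 (SE 0.23). The dimmer Ces2e probe, at 107457772 to 107457831, had Cy5 signals of 20.4, 18.0 and 116 against 120, 59.2 and 102. Its log2 ratio difference was 0.61 (SE 0.38), and that of its deposited log ratio was -0.10 (SE 0.42). The reference of this probe was well above background on 0 of 3 and 1 of 3 arrays, so its ratios give no settled direction.

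Ces2f, a neighbour of Ces2e, was the one whose brighter probe kept separate groups in all 4 normalized measures, the reference channel included. Cy5 signals were 409, 467 and 1366 on the arrays labelled wild type and 3102, 4873 and 7478 on the knockout-labelled arrays. Means were 747 ± 536 and 5151 ± 2202 (SD, n = 3 each), a 6.89-fold difference, which became 11.8-fold when wild type replicate 3 was left out. Leaving out any other single array gave 5.33-fold to 8.26-fold. Log2 ratios were 3.74, 3.75 and 4.10 against 5.81, 5.46 and 5.89. The difference was 1.86 (SE 0.18), and 2.30 (SE 0.22) with Cy5 alone. The deposited log ratio was 5.19, 5.30 and 5.03 against 6.70, 5.83 and 6.14, a difference of 1.05 (SE 0.27). After quantile normalization Cy3 differed by 0.85 (SE 0.21), although its signals of 53.7, 42.3 and 71.2 against 66.0, 164 and 196 overlapped before it.

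The dimmer Ces2f probe is named Ces2f in the scanner files but its accession matched no RefSeq entry. It lies at 107482223 to 107482282. Cy5 signals were 11.7, 15.9 and 40.4 against 27.9, 45.2 and 54.2 and overlapped. Cy5 was well above background on 2 of 3 arrays labelled wild type and 3 of 3 labelled knockout. Cy3 was 27.6, 30.3 and 33.6 against 3.62, 31.8 and 16.6, well above background on 3 of 3 and 2 of 3. The log2 ratio difference was 0.52 (SE 0.16), 0.24 with median centring and 0.29 (SE 0.15) with Cy5 alone. The deposited difference was 1.73 (SE 0.56), larger than that of the log2 ratio, whereas at the brighter probe it was smaller. The array with a Cy3 of 3.62 had the highest deposited log ratio, 3.71.

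**Figure D1:**
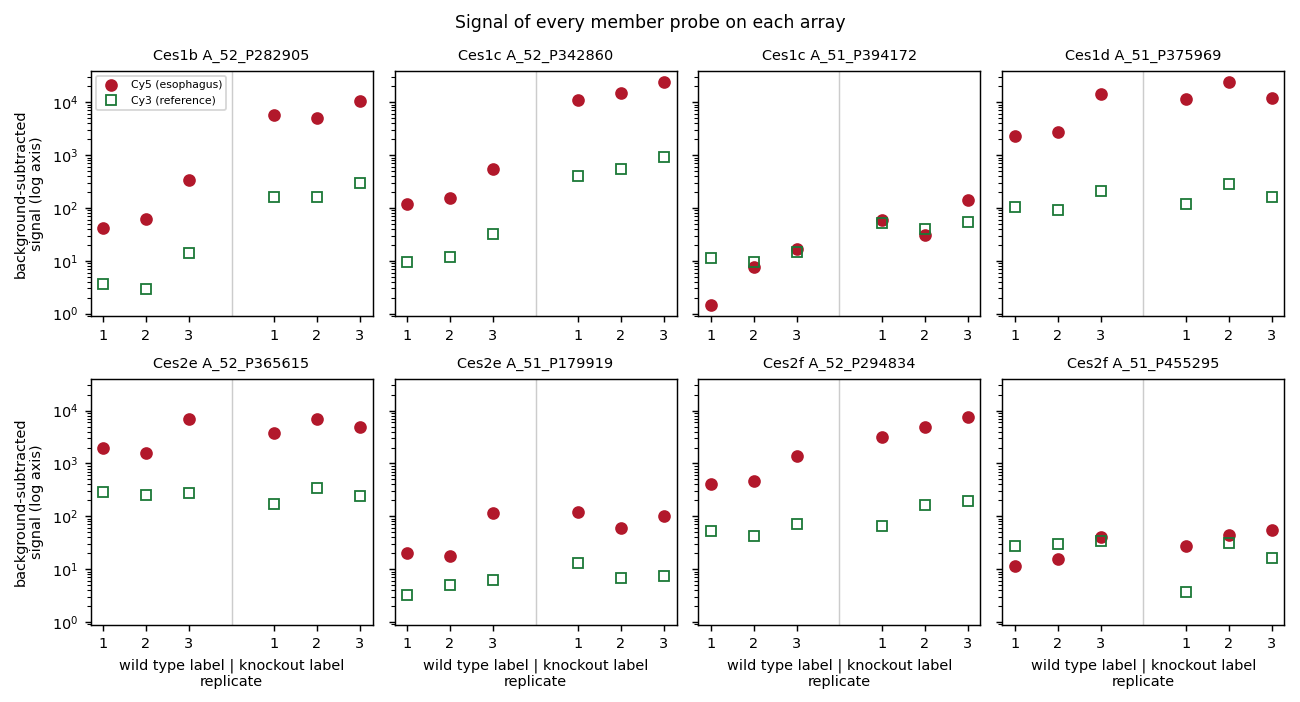
Background-subtracted Cy5 signal of the esophagus RNA (filled circles) and Cy3 signal of the reference RNA (open squares) on a log axis, for each of the 8 probes on each array, with replicates 1 to 3 labelled wild type on the left of each panel and those labelled knockout on the right. At the Ces1b probe and the probe shared with Ces1b both channels are higher on all 3 arrays labelled knockout, while at the brighter Ces2e probe both overlap between the groups.

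Counted by the threshold used for all genes (limma adjusted p under 0.05), 3 of the 5 genes, Ces1b, Ces1c and Ces2f, were called higher on the arrays labelled knockout by the log2 ratio, where 2.83% of all genes were. The same 3 were called higher with Cy5 alone, where 14.3% of all genes were, and with Cy3 alone, where 29.8% were. With the replicate number as a block they were 3 of 5 against 4.97%, and with median centring 3 of 5 against 0.365%. With the deposited log ratio, where 1.45% of genes were called higher, limma called 0 of 5, and 2 had an unadjusted p under 0.05, as 16.1% of all genes did. The log2 ratio did not overlap between the groups, higher on the arrays labelled knockout, for Ces1b, Ces1c, Ces1d and Ces2f, as for 17.1% of all genes. With Cy5 alone that held for 3 of 5 against 25.8%, with Cy3 alone for 3 of 5 against 37.4%, and with the deposited log ratio for Ces1d, Ces2e and Ces2f against 12%. In every count Ces1c is read by the probe shared with Ces1b, so its call is not separate from that of Ces1b. Since the genes were picked from this contrast, nothing is read from these counts.

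A Cy3 difference as large as that of Ces1b was uncommon over all genes. Over the 20820 genes tested the median Cy3 difference was 0.04 on the log2 scale, and 2.9% of genes had a Cy3 difference of at least 1. Among the 162 genes whose Cy5 difference was at least 2, which hold Ces1b, Ces1c and Ces2f, the median Cy3 difference was 1.03 and 51.2% had one of at least 1. The Cy3 differences of Ces1b (2.05) and of the probe shared with Ces1b (3.12, SE 0.23) lay above that median, and that of Ces2f (0.85) below it.

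**Figure D2:**
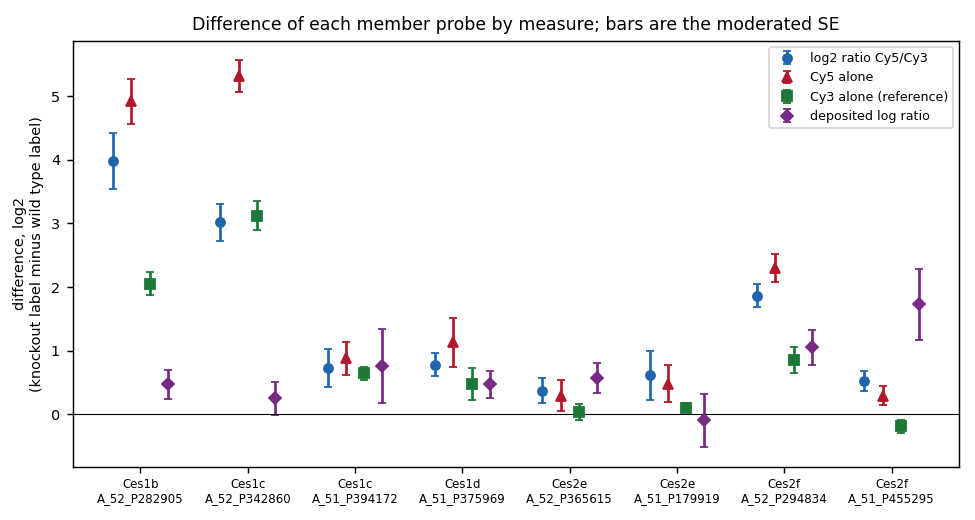
Difference between the group means (knockout label minus wild type label), on the log2 scale, for each of the 8 probes, as log2 ratio (circles), Cy5 alone (triangles), Cy3 alone (squares) and deposited log ratio (diamonds), with bars for the moderated SE from 3 arrays a group. At the Ces1b probe the difference is 3.98 by the log2 ratio and 0.47 by the deposited one, while at the brighter Ces2e probe the 4 measures lie between 0.03 and 0.57.

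Of the carboxylesterase family as a whole, the list held 20 genes, of which 15 had a probe and 14 were tested. Higher on the arrays labelled knockout were the 3 above, with Ces1c again read by the probe shared with Ces1b. By the same threshold 0 were lower and 11 did not pass. At an unadjusted p under 0.05 limma counted 7 of 14, beside 24.7% of all genes. The median difference over the 14 was 0.59, beside 0.01 over all genes, and that median includes the 5 genes chosen for their difference. Without knockout replicate 3 the count past the threshold was 0 of 14, with 5 at an unadjusted p under 0.05, beside 17.4% of all genes. It was 3 of 14 without any other single array. Over the 9 genes not chosen here, 0 passed by the log2 ratio, with 3 at an unadjusted p under 0.05, the median was -0.03 and 4 differences were positive. Ces1a, Ces1h, Ces2d-ps, Ces2h and Ces3a had no probe of their own. Ces4a was not tested, being well above background on 1 array of each group.

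Among the neighbours of Ces1b to Ces1d, the log2 ratio differences went both ways. Ces1e, known as egasyn, which holds beta-glucuronidase in the endoplasmic reticulum, had Cy5 signals of 76.4, 111 and 268 against 105, 412 and 156. Its difference was 0.64 (SE 0.37, limma adjusted p = 0.34). It was 0.07 (adjusted p = 0.86) with Cy5 alone and 2.77 (adjusted p = 0.018) with the deposited log ratio. The reference moved beside it, with Cy3 at 39.4, 37.1 and 47.2 against 2.32, 22.7 and 4.05, well above background on 3 of 3 and 1 of 3 arrays, a Cy3 difference of -0.54 (adjusted p = 0.0036). Ces1f, a lipid hydrolase of the liver, scattered widely, with Cy5 signals of 194, 1283 and 1158 against 104, 1562 and 179. Its difference was -1.23 (SE 0.94, adjusted p = 0.47). With the replicate number as a block it passed (adjusted p = 0.047), and over 17 alternatives the adjusted p ran up to 0.85. Ces1g, a hepatic esterase of lipid metabolism, read -0.03 (SE 0.74, adjusted p = 0.98) on its brighter probe and -0.39 (SE 0.71, adjusted p = 0.78) on the other.

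Of the tested Ces2 genes around Ces2e and Ces2f, none passed by the log2 ratio. Ces2a and Ces2c are known as acylglycerol hydrolases. Ces2a differed by 0.55 (SE 0.28, limma adjusted p = 0.30) and by -0.05 with Cy5 alone. Ces2b read 0.63 (SE 0.20, adjusted p = 0.12), with Cy5 signals of 1092, 832 and 2326 against 1591, 2293 and 2525, which overlap. Its log2 ratios, at 4.36, 3.73 and 3.92 against 4.45, 4.72 and 4.73, did not, while Cy3 was lower on the knockout-labelled arrays, with a difference of -0.35 (adjusted p = 0.0054). Ces2c, whose probes also carry an accession of Ces2d-ps, read -0.14 (SE 0.25, adjusted p = 0.78) on the brighter probe and 0.42 (SE 0.19, adjusted p = 0.24) on the other. Ces2g, directly beyond Ces2f, was bright in both groups, at 4776, 3419 and 12462 against 4783, 5218 and 6571. Its difference was -0.52 (SE 0.20, adjusted p = 0.19), and with Cy5 alone it fell by 0.67 (adjusted p = 0.047, the lowest of 17 alternatives, which ran up to 0.83).

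On the tested probe of each, Ces3b and Ces5a were above background in 1 group, and the Cy3 reference at that probe changed in the same direction. The Ces3b probe, which also carries an accession of Ces3a, had Cy5 signals of 2.53, 1.61 and 6.04 on the arrays labelled wild type, none well above background, and 70.6, 68.2 and 61.9 on the knockout-labelled arrays. Cy3 of that probe was well above background on 0 of 3 and 3 of 3 arrays, a Cy3 difference of 0.7 (limma adjusted p = 0.00011). The log2 ratio difference of Ces3b missed the threshold (0.64, SE 0.16, limma adjusted p = 0.073). It passed with Cy5 alone (0.83, adjusted p = 0.014), over alternatives that ran up to 0.92. Ces5a, known as cauxin of urine, showed the reverse on its tested probe, at 28.1, 35.3 and 69.4 against 0.421, 0.0815 and 3.59. There the knockout-labelled arrays were not well above background. No fold is given for either gene, since only a bound exists in its dim group and the size of the difference varied with the scaling. The log2 ratio difference of Ces5a was -0.30 (SE 0.13, adjusted p = 0.23), and -0.77 (adjusted p = 0.0089) with Cy5 alone, over alternatives that ran up to 0.90. Cy3 of Ces5a was well above background on 3 of 3 and 0 of 3 arrays, a Cy3 difference of -0.91 (limma adjusted p = 4.8e-05). Why Cy3 differed at these probes was not tested. The other Ces5a probe did not enter the fit, since its Cy5 was well above background on 0 arrays of either group. Its Cy5 signals were 3.22, 2.98 and 13.8 against 9.29, 10.3 and 3.37.

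**Figure D3:**
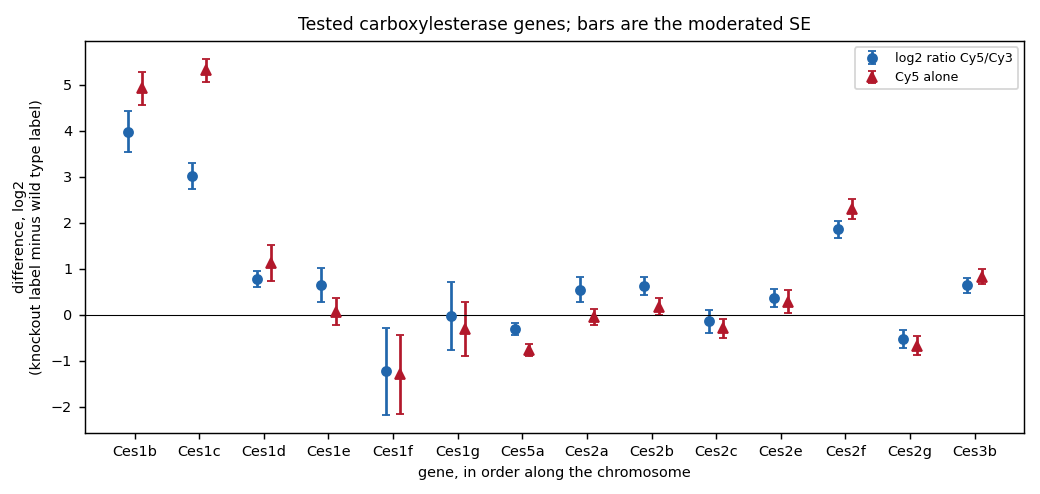
Difference on the log2 scale, knockout label minus wild type label, for the 14 tested carboxylesterase genes in their order along chromosome 8, by log2 ratio (circles) and Cy5 alone (triangles), with bars for the moderated SE from 3 arrays a group. Ces1b, Ces1c and Ces2f lie at 1.86 or above in both measures, whereas Ces1f, Ces1g, Ces5a, Ces2c and Ces2g lie below 0 in both and did not pass by the log2 ratio, and Ces1g and Ces2c turn positive with the deposited log ratio. The Ces1c point is the probe shared with Ces1b, whose signal cannot be given to 1 of them. The Ces1c-only probe, not drawn, read 0.72 and 0.88.

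Promoter sequences were compared because Ces1b with Ces1c, and Ces2e with Ces2f, are neighbours that were chosen together. Promoter entries of RefSeq (GRCm38.p6) were matched for 4 of the 5 genes, Ces1b, Ces1c, Ces2e and Ces2f. The bases upstream of the Ces1b start, chr8:93080018-93080161 on the minus strand, align with a stretch 247 to 88 bases before the Ces1c start, chr8:93131371-93131530 on the same strand. Of these, 137 bases are identical, 7 are substituted and 16 of Ces1c have no partner. Capitals mark bases that differ or have no partner.
Ces1b upstream: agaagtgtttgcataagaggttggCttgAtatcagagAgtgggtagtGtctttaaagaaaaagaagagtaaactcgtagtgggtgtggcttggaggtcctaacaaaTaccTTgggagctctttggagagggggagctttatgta
Ces1c upstream: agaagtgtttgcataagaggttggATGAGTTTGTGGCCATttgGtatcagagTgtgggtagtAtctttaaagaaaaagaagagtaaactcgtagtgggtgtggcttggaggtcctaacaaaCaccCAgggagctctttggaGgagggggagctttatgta

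Upstream of Ces2e and Ces2f a run of 11 bases, in capitals, was shared, beginning 81 and 93 bases before the start. The stretches shown are chr8:104926159-104926209 and chr8:104947243-104947293 on the plus strand, with 20 bases on each side of the run.
Ces2e upstream: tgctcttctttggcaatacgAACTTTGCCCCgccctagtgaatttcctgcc
Ces2f upstream: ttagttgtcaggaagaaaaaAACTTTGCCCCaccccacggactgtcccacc

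A set of 6 motifs was searched on both strands of the 250 bases before 32851 RefSeq starts. ACTTTGCCC, taken from the shared run itself, was found in 0.222% of all windows, in Ces2e and Ces2f and also in Ces2a and Ces2g. Of these genes only Ces2f was called by the log2 ratio above, and Ces2e, Ces2a and Ces2g were not. TTATGTAA, a D-box type of sequence, was in 0.819% of windows, in Ces1c and also in Ces1a, Ces1e and Ces1g. The Ces1b stretch above ends at the start with all but the last letter of this motif. The search stopped there, so it could not have found a match that crosses the start. AGTTCA, a half-site of the PXR type, was in 11.8% of windows, in Ces1b and also in Ces1a and Ces5a. AGGTCA (14.0% of windows), TATAAA (12.4%) and TGACNNNGC, the antioxidant response element (10.2%), were in none of the 4 promoters. Among their relatives AGGTCA was in Ces2a, Ces2h and Ces4a, and TATAAA in Ces1g, Ces1h and Ces3b. A match is a run of letters in a window, not a site.

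Genes with the nearest pattern to each carboxylesterase were found as the smallest root mean square difference between log2 ratios centred over the 6 arrays, among 16843 genes with a RefSeq symbol. Nearest to Ces1b were Cyp2a5, a coumarin-hydroxylating cytochrome P450 (0.28), and Lpcat2b, a lysophospholipid acyltransferase (0.43). Nearest to the shared Ces1b and Ces1c probe were 1700010L04Rik (0.18) and Olfr332, an olfactory receptor gene (0.20). The Cy3 differences of these 4, from 1.26 for Lpcat2b to 1.65 for Olfr332, lay above the median over all genes (0.04). Of the genes named last, those nearest to Ces2f had Cy3 differences of 0.54 and 1.03. Those nearest to Ces2e had 0.25 and 0.05, the latter close to that median. Nearest to Ces1d were Gstm1, a glutathione transferase (0.095), and Adamts15, a secreted metalloprotease (0.096), with Cy3 differences of -0.31 and -0.17. Ces2e was nearest to Cilk1, a kinase of cilia (0.062), and Ankrd46 (0.064). Ces2f was nearest to Sds, the liver enzyme serine dehydratase (0.10), and Olfr557, an olfactory receptor gene (0.13).

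Other hydrolases of esters and lipids that passed by the log2 ratio over all 6 arrays, without a block or array weights, were lower. The list held 30 genes, of which 28 were tested. By limma 0 were higher, 4 were lower, where 2% of all genes were lower, and 24 did not pass. At an unadjusted p under 0.05 there were 10 of 28, beside 24.7% of all genes. The median difference was -0.37, beside 0.01 over all genes. Aadac, arylacetamide deacetylase of the endoplasmic reticulum, fell by 2.31 (SE 0.25, limma adjusted p = 0.0099), from a log2 ratio of 3.59 ± 0.45 to 1.29 ± 0.21 (SD, n = 3 each). With the deposited log ratio its difference was 0.28 (adjusted p = 0.64). Faah, which degrades fatty acid amides, fell by 2.76 (SE 0.32, adjusted p = 0.012), with Cy5 signals of 252 to 628 against 22.2 to 29.8. Pon3, a lactonase, fell by 1.20 (SE 0.18, adjusted p = 0.023), with Cy5 signals of 6212 to 12413 against 2921 to 7133, which overlap. Lipn, an epidermal lipase named after its values were seen, had 0 of 3 knockout-labelled arrays well above background and was at least 1.7-fold lower there against the lowest signal counted as above background (adjusted p = 0.029), a bound open to dye bias because no dyes were swapped. Aadac lost its call without knockout replicate 3 (adjusted p = 0.061) and Faah without wild type replicate 1 (0.057) or knockout replicate 3 (0.071). Pon3 kept it only when wild type replicate 3 or knockout replicate 2 was the array left out (adjusted p otherwise up to 0.12), and Lipn lost it when any array but wild type replicate 3 was left out (adjusted p up to 0.13). The count past the threshold was 0 without knockout replicate 3, with 10 at an unadjusted p under 0.05, beside 17.4% of all genes. It was 1 without wild type replicate 1, and 2 without wild type replicate 2 or knockout replicate 1. With the replicate number as a block 8 passed, of which 2 were higher and 6 lower. Over all 20820 genes that fit called 1035 higher and 672 lower. Array weights gave 2 higher and 5 lower in the list, beside 1358 and 1111 over all genes. Cy5 alone gave 1 and 8, beside 2984 and 3020. Leaving out knockout replicate 2 gave 1 and 4, beside 476 and 200.

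Receptors that sense foreign compounds, with genes they are known to control, formed a list of 30 genes, of which 26 were tested. By limma, 1 was higher, beside 2.83% of all genes, 0 were lower, beside 2%, and 25 did not pass. At an unadjusted p under 0.05 there were 3 of 26, beside 24.7% of all genes. The median difference was -0.02. Cyp2b10, a drug-oxidizing cytochrome P450 and a known target of the receptor CAR, rose by 1.5 (SE 0.30, limma adjusted p = 0.043), with Cy5 signals of 124 to 423 against 736 to 1034. It missed the threshold when any single array was left out (adjusted p up to 0.17). It passed in 5 of 17 alternatives, with adjusted p from 0.012 to 0.21. Hnf4a, a nuclear receptor of liver and gut, read -0.66 (SE 0.16, adjusted p = 0.062). It passed in 3 of 17 alternatives, with adjusted p from 0.006 to 0.51. Ugt1a1, which glucuronidates bilirubin, read -1.39 (SE 0.37, adjusted p = 0.081). With the replicate number as a block Ugt1a1 passed (adjusted p = 0.0079), within a range over alternatives of 0.0079 to 0.78.

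Because carboxylesterases are known from liver, gut, fat and other tissues, markers of the cell types that such RNA could hold were summed on each array. Squamous epithelium, the labelled tissue, was bright on all arrays, with all 8 markers above background and summed Cy5 signals of 727252 to 2007941 on the arrays labelled wild type and 1635009 to 1933455 on the knockout-labelled arrays. Krt5 and Krt13 were its brightest. Skeletal muscle markers, led by Acta1 and Myh1, summed to 18199 to 206882 and 100682 to 1223299, so the RNA was not of epithelium alone.

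Liver markers summed to 479 to 1694 on the arrays labelled wild type and 957 to 2289 on the knockout-labelled arrays, which overlap. Of 9 with a probe, 2 were well above background on all 6 arrays, and Cps1 and Ttr were so on none. Ahsg, the brightest, read 262 to 1605 and 518 to 1671, while Tat read 53.6 to 156 and 343 to 407, without overlap. Stomach and intestine markers summed to 1057 to 6445 and 1271 to 2169, led by Lgals4 and Muc5ac, and Cdx1, Cdx2 and Gkn1 were above background on no array. Adipocyte markers summed to 739 to 5738 and 2291 to 11413. In that list Fabp4, which macrophages also express, read 593 to 5379 and 2084 to 9403, and Cfd 4.47 to 26.8 and -2.51 to 1323.

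Lung and airway markers, led by Scgb1a1 and Scgb3a2, were the list whose groups did not overlap, at 8993 to 35488 against 3348 to 8628, lower on the arrays labelled knockout. Most of that sum was the single gene Scgb1a1, at 8546 to 34364 against 2661 to 7892. Scgb3a2, at 363 to 993 against 435 to 650, overlapped, so the separation is not one of the list as a whole. Macrophage markers, led by Lyz2 and Csf1r, summed to 16282 to 135741 and 35227 to 76135. The part of any of these cell types in the carboxylesterase values was not tested.

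**Figure D4:**
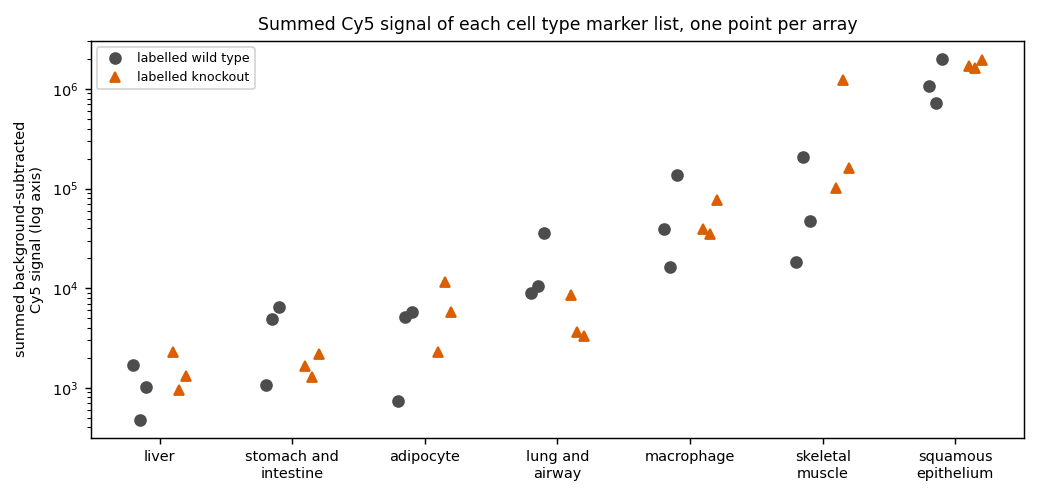
Summed background-subtracted Cy5 signal of each cell type marker list on a log axis, 1 point per array, with circles for arrays labelled wild type and triangles for those labelled knockout. The groups overlap for every list shown except lung and airway, where all 3 arrays labelled knockout are lower, at 3348 to 8628 against 8993 to 35488. Most of that sum is the single gene Scgb1a1.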

How the data were processed

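The authors deposited scanner files with linear Cy5 and Cy3 intensity values and signal flags for 45018 spots on each array (Agilent Feature Extraction 10.7.3.1 per the file headers and 9.1 per the submitters' processing notes). They also deposited the program's log10 ratio of Cy5 over Cy3, after its own background subtraction and dye normalization, and a series matrix of log2 values. Against the scanner ratios the matrix columns correlated at -0.996 to -0.993, with a slope near -1 and medians of -0.021 to 0.016, so its sign was turned. Its centring stays unknown.

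From the intensities, normexp background correction (offset 50) was followed by loess within arrays, where control spots had weight 0. Between 55 and 164 flagged outlier spots an array were set to missing. 0 spots were saturated. Cy5 was well above background on 67.9% to 77.7% of spots. A probe was tested when either group had Cy5 well above background on its 3 arrays, and the brightest tested probe stood for a gene. Of 41174 probes, 26910 were named by accession, 5088 by name and 816 by synonym from RefSeq genes of GRCm38.p6, used for names only, and 8360 kept the file's name. Limma 3.58.1 in R 4.3.3 (lmFit, eBayes, two-sided) was fitted to all 6 arrays without a covariate, with Benjamini-Hochberg adjustment over all tested probes and a threshold of 0.05. SDs are over 3 arrays and SEs are moderated. An exact permutation test of 3 against 3 cannot go below 0.1, so none was used. The number of arrays limits the precision.

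Both groups use the numbers 1 to 3. Deviations of same-numbered arrays correlated at 0.14, 0.49 and 0.32 over genes, all above 0.1, so by the rule used the numbers pair the arrays. Off-number pairs ranged from -0.47 to 0.16, and replicate 1 labelled wild type correlated best with replicate 3 labelled knockout, which leaves its pairing unclear. The labels do not say what a number means, and on each slide they also follow the position, so the block takes out position too.

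The named genes are all carboxylesterases with a probe, the 3 genes with the smallest p in each other list, the 2 nearest genes of each chosen gene, Pax9 and the 2 brightest markers of each list. Lists, rules and the 5 genes were chosen with earlier results of these data known. The fit was tested on simulated data. Alternatives covered background correction, deposited ratios, normalization, Cy5 alone, filters, variance, array weights, a replicate block, probe averaging and leaving out each array. The Cy3 channel alone was added after seeing the data.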

Additional observations from a re-analysis of the deposited data

How the results depend on the processing

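On its brightest probe each of the 5 chosen genes kept a positive difference in every setting run, while the dimmer Ces2e probe read -0.10 with the deposited log ratio. Leaving out 1 array at a time gave 3.62 to 4.52 for Ces1b, 2.82 to 3.34 for Ces1c, 0.70 to 0.91 for Ces1d, 0.20 to 0.54 for Ces2e and 1.77 to 1.99 for Ces2f. Over the other settings Ces1b ran from 0.47 (deposited log ratio) to 4.92 (Cy5 alone), Ces1c from 0.25 to 5.32, Ces1d from 0.47 to 1.13, Ces2e from 0.29 to 0.57 and Ces2f from 1.05 to 2.30. The cause of the smaller deposited differences was not tested. The Ces1c-only, dimmer Ces2f, Ces3b and Ces5a probes are limited by signal over background, being dim in a whole group or on part of its arrays.

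Counts past the threshold were 1007 for all genes, 3 for the carboxylesterase family, 4 for other hydrolases and 1 for xenobiotic receptors and targets. In the same order the deposited log ratio gave 571, 1, 2 and 0, the series matrix 561, 1, 2 and 0, and Cy5 alone 6004, 6, 9 and 5. Array weights gave 2469, 5, 7 and 2. The replicate block gave 1707, 4 (3 higher, 1 lower), 8 and 2, and the pairing changed the call of Ces1f and Ugt1a1 among the named genes. Median centring left 120 genes and 0 of the xenobiotic list. The filter for signal on all 6 arrays left 558 of 17410 genes, fewer being tested. The xenobiotic count was 0 with a variance trend, and 2 with no filter on dim probes or with averaged probes. Where limma gave 0 for that list, 3 to 6 genes had an unadjusted p under 0.05. Leaving out 1 array gave 34 to 826, 0 to 3, 0 to 5 and 0 to 0. The lowest values of the first 3 came without knockout replicate 3, and leaving out wild type replicate 1 gave 87 genes, wild type replicate 2 164 and knockout replicate 1 267.

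Signs turned for 5 genes. Aadac read 0.28 with the deposited log ratio and the matrix. Ces1g read 0.10 with these 2, 0.03 with median centring, 0.54 with array weights, and -0.54 to 0.76 over the single leave-outs (0.02, 0.41 and 0.76 without wild type replicate 2, wild type replicate 3 and knockout replicate 2). With the same 2 Ces2c read 0.05, beside 0.14 with averaged probes and -0.33 to 0.08 over the single leave-outs, positive without knockout replicate 1. Ces2a read -0.05 with Cy5 alone, and Ces3b -0.06 with median centring. The cause was not tested. Log2 of the deposited processed signals equalled the deposited log ratio and gave no further value, and slide could not be fitted as a block.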
